A study of Mus musculus with 8 samples.

Results

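The clustered protocadherins are represented in the count table by 1 gene, Pcdha1, the first member of the alpha cluster. Members were sought as rows whose symbol starts with Pcdha, Pcdhb or Pcdhg, and 1 of 23481 rows matched, 1 for alpha, 0 for beta and 0 for gamma. The GENCODE M21 annotation of mouse build mm10 lists 58 such genes, 14 alpha, 22 beta and 22 gamma, so 57 of them are not analysed here. The values below therefore describe Pcdha1 and its surroundings, and no sum over the beta or gamma cluster could be formed. The study profiled nuclei of adult mouse midbrain from FACS, with 10x Single Cell 3′ v3 libraries that count 1 unique molecular identifier (UMI) per captured transcript. The nuclei are labelled as midbrain dopamine (mDA) neurons. The first library is of a Polycomb repressive complex 2 (PRC2) mutant and the second is wild type (wt). Both carry the strain name DatCreEed, a name that pairs a Cre of dopamine neurons with the PRC2 core gene Eed. The labels do not give the alleles of either group. Each library pooled 2 female mice and 1 male mouse aged 8 months, and its 4 samples are sequencing lanes of that library. There was 1 library per genotype, so genotypes were not tested against each other, and a genotype cannot be told apart from its library. All intervals are 95% intervals for counting error only.

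Clustered protocadherins are cell surface proteins of the cadherin superfamily that sit in tandem in alpha, beta and gamma clusters. Each neuron switches on a small set of members by promoter choice, with the factor CTCF and cohesin looping a chosen promoter to a distant enhancer, and the resulting surface code lets branches of the same neuron recognise and avoid each other. In the alpha and gamma clusters each member has its own variable first exon, which is spliced to constant exons at the 3′ end that all members of the cluster share. Beta members have a single exon and no constant exons. PRC2 places a repressive methyl mark on histone H3, and the comparison is of transcripts between nuclei labelled PRC2 mutant and wt. The mark itself was not measured here.

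Pcdha1 was the only annotated member with a stretch of gene body to itself. Pcdha1 lies on the plus strand of chromosome 18 from 36930184 to 37187661 (mm10), and its 257478 bases run from its own first exon across all later alpha members to the constant exons. Pcdha2 starts 9021 bases further on, and these 9021 bases are the part of Pcdha1 that no other same-strand gene overlaps. Each of the other 57 annotated members had 0 such bases in its gene body. Beta members, which share no exon with the alpha or gamma clusters, are covered too, because 3 annotated read-through genes on the same strand run from alpha into gamma. The longest of these, Gm42416, spans 36952741 to 37840200. When exons alone were compared, the same 57 members had 494 to 8695 unshared bases each, with a median of 3028. Across the genome, of 392 other protein-coding genes with 0 unshared bases in the gene body 15 had a row in the table, 3.83% (interval 2.16 to 6.23%). Of 20535 genes with 1000 unshared bases or more, 17392 had a row, 84.7% (84.2 to 85.2%). Of 254 genes with 0 unshared bases in the body but 1000 or more in exons, 6 had a row, 2.36% (0.872 to 5.07%). The sources used here do not say whether the authors counted tags over exons or over gene bodies. Where in the gene the Pcdha1 tags lie was not analysed here.

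**Figure D1:**
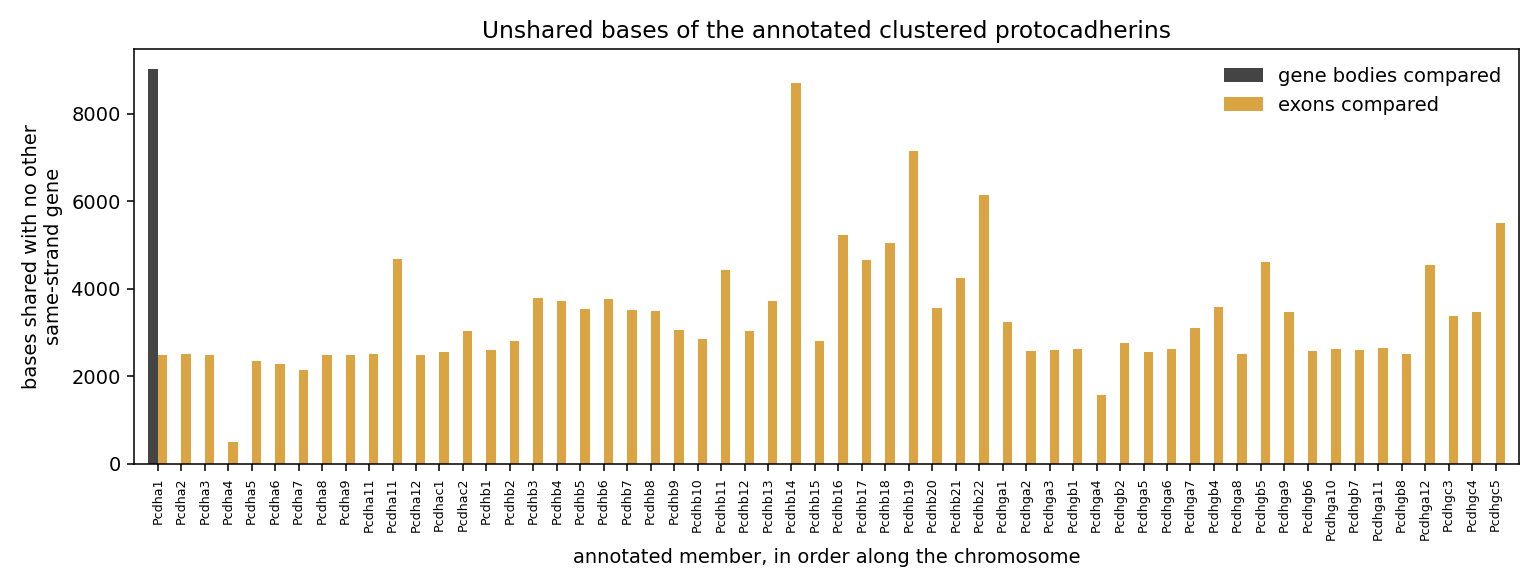
Bases of each annotated clustered protocadherin that no other same-strand gene shares (vertical axis, bases), with members in order along the chromosome, for gene bodies (dark bars) and for exons (light bars). Pcdha1 alone has unshared gene body, 9021 bases, while every one of the 58 members has unshared exon bases.

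Nuclei were split by a dopamine score, the summed UMIs of Th, Slc6a3, Slc18a2 and Ddc per 10000 UMIs of the nucleus. Nuclei with a score of at least 5 are called dopamine nuclei and the rest other nuclei. The mutant library held 2875 dopamine and 1093 other nuclei and the wt library 1320 and 452. Dopamine nuclei summed to 68742978 UMIs in the mutant and 39383984 UMIs in the wt library, with medians of 19023 and 24257.5 UMIs per nucleus. Other nuclei had medians of 14650 and 12471.5 UMIs. Eed had 41.3 CPM in mutant and 21.4 CPM in wt dopamine nuclei, where CPM are UMIs per 1000000 UMIs of the class in that library; the deleted part of the gene is not given, so this level does not check the label. The 31 Hox genes of the table, which midbrain neurons do not normally transcribe, summed to 526 CPM in mutant and 0.0762 CPM in wt dopamine nuclei, and to 93.5 and 1.12 CPM in other nuclei. The score genes themselves differed in dopamine nuclei: Th, which makes the dopamine precursor, had 74.8 CPM in the mutant and 178 CPM in the wt library. Slc6a3, the dopamine transporter gene, had 191 and 489.9 CPM, Slc18a2, the vesicular transporter gene, 308.6 and 779 CPM, and Ddc, a decarboxylase gene, 795 and 1004 CPM. The median score of dopamine nuclei was 13.7 in the mutant and 24.3 in the wt library, so a fixed limit takes nuclei of different score from each. The 36 glial and vascular markers summed to 1436 CPM in mutant and 1320 CPM in wt dopamine nuclei and to 2021 and 2735 CPM in other nuclei. In dopamine nuclei the oligodendrocyte precursor markers alone made 819 CPM of this sum in the mutant and 711 CPM in the wt library. Leaving out nuclei with at least 5 glial and vascular marker UMIs per 10000 kept only 218 mutant and 179 wt dopamine nuclei. The Pcdha1 ratio of mutant to wt in these was 1.06 (0.294 to 3.68). Without nuclei that had more glial and vascular than neuron marker UMIs, 2842 and 1299 dopamine nuclei remained, and the ratio was 0.991 (0.743 to 1.33).

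Pcdha1 showed no difference between the libraries beyond counting error, at a low level in both. The level counts tags assigned to Pcdha1, and how tags in the constant exons shared by alpha members were assigned is not given. In dopamine nuclei Pcdha1 had 133 UMIs in the mutant library, or 1.93 CPM (1.62 to 2.29). In the wt library it had 77 UMIs, or 1.96 CPM (1.54 to 2.44). The ratio of mutant to wt was 0.990 (0.742 to 1.33). In other nuclei Pcdha1 had 35 UMIs in the mutant library, 1.80 CPM (1.25 to 2.50), and 15 UMIs in the wt library, 2.10 CPM (1.17 to 3.46), a ratio of 0.858 (0.457 to 1.69). Pcdha1 was within 1.5-fold in both classes, on a log2 scale with 1 CPM added to each value, at -0.01 in dopamine and -0.15 in other nuclei. Of 16324 genes with at least 50 UMIs in dopamine nuclei, 4.29% were higher and 3.63% lower in the mutant library by 1.5-fold or more, 7.92% in all. In other nuclei, of 13491 genes 3.05% were higher and 4.66% lower, 7.71% in all. Of the 944 genes whose UMIs in dopamine nuclei were within 20% of those of Pcdha1, 14.4% passed the same limit.

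Dopamine nuclei were no richer or poorer in Pcdha1 than other nuclei of their own library beyond counting error. The ratio of dopamine to other nuclei was 1.08 (0.736 to 1.61) in the mutant library and 0.933 (0.532 to 1.75) in the wt library. With every nucleus weighted equally, whatever its depth, the ratio in the mutant library was 1.70, past the upper bound of that interval. Other nuclei with more neuron than glial and vascular marker UMIs had 1.72 CPM (1.17 to 2.42) in the mutant and 2.17 CPM (1.19 to 3.65) in the wt library. In other nuclei with more glial and vascular than neuron marker UMIs, 3 UMIs were found among 186 mutant nuclei and 1 UMI among 135 wt nuclei. These nuclei had medians of 3004.5 and 3496 UMIs, too shallow for a level to be read.

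**Figure D2:**
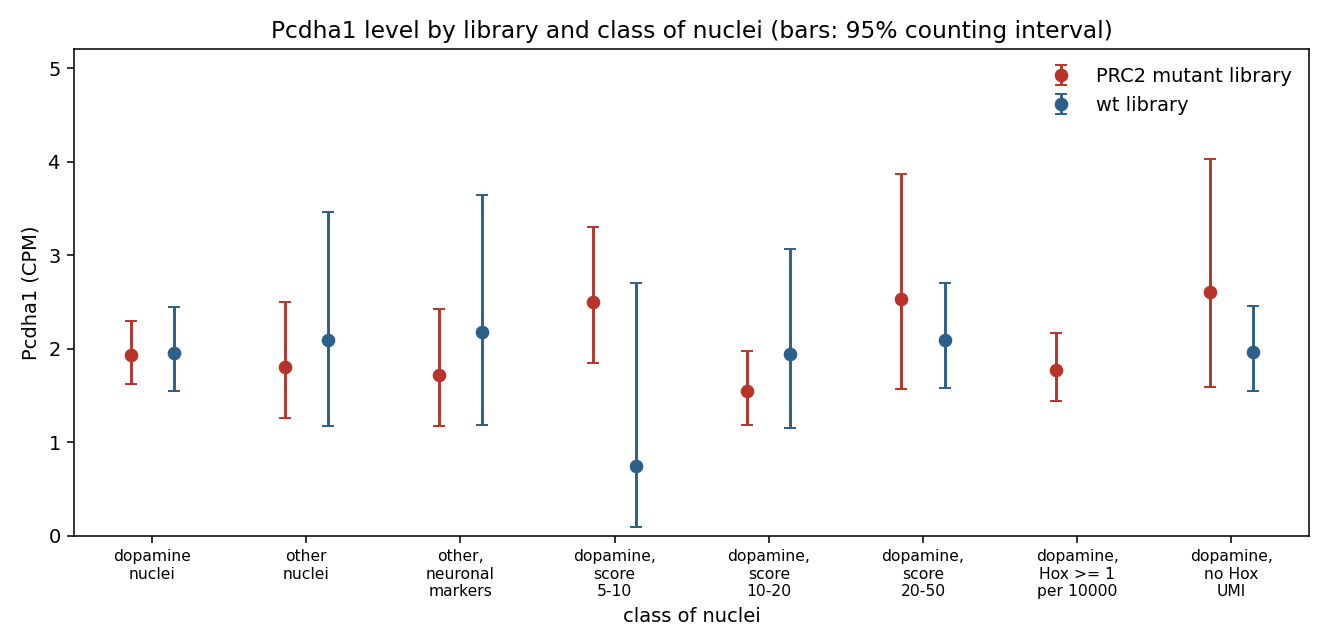
Pcdha1 level (vertical axis, CPM) in the PRC2 mutant library (left, red) and the wt library (right, blue) by class of nuclei, with bars for the 95% counting interval. In dopamine nuclei the libraries stand at 1.93 and 1.96 CPM, and the intervals of the libraries overlap in every class that both hold.

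Few nuclei carried a Pcdha1 tag, and most of those carried a single one. In the mutant library 105 of 2875 dopamine nuclei had a tag, 3.65% (2.997 to 4.404%), and in the wt library 62 of 1320, 4.70% (3.62 to 5.98%). Of these, 82 mutant nuclei had 1 UMI, 20 had 2 and 3 had 3 or more, with a highest count of 5. Among wt nuclei 51 had 1 UMI, 8 had 2 and 3 had 3 or more, with a highest count of 4. Tagged nuclei were deeper, with medians of 26973 UMIs in the mutant and 37838 UMIs in the wt library, against 18787.5 and 23769.5 UMIs in nuclei without a tag. Among other nuclei, 24 of 1093 had a tag in the mutant library, 2.20% (1.41 to 3.25%), and 12 of 452 in the wt library, 2.65% (1.38 to 4.59%). Glial and vascular marker nuclei were taken here as a reading of free RNA, though expression of Pcdha1 in these nuclei themselves was not excluded. Of these, 2 of 186 mutant nuclei (1.08%, 0.130 to 3.83%) and 1 of 135 wt nuclei (0.741%, 0.0188 to 4.06%) had a tag. These intervals overlap those of the dopamine nuclei in both libraries, although the wt dopamine share itself lies above the wt glial interval, and the glial marker nuclei are far shallower. By these unthinned shares background and expression cannot be told apart. Thinned to 5000 UMIs, 1 of 51 mutant and 0 of 44 wt glial and vascular marker nuclei had a tag, with intervals of 0.0496 to 10.4% and 0 to 8.04%.

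With Pcdha1 as the single member, the number of members per nucleus is the share of nuclei with a tag. After each nucleus was thinned to 5000 UMIs, a tag remained in 27 of 2785 mutant dopamine nuclei, 0.969% (0.640 to 1.41%), and in 13 of 1260 wt dopamine nuclei, 1.03% (0.550 to 1.76%), with 90 and 60 shallower nuclei left out. The average over all possible draws was 0.970% in the mutant and 0.898% in the wt library. In a draw of 10000 UMIs a tag remained in 2.04% of mutant (1.51 to 2.69%) and 1.12% of wt dopamine nuclei (0.5996 to 1.91%). The average over all such draws was 1.92% and 1.81%. At that depth 521 mutant and 163 wt nuclei were left out, so these shares are of the deeper nuclei. The intervals of the libraries overlapped at both depths, and the lower unthinned share of the mutant library stood beside its lower median depth. Pcdha1 had 1.26 UMIs per tagged dopamine nucleus over both libraries, against a median of 1.11 for the 944 genes of like total, of which 16.7% had more.

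Across score ranges the mutant level had no steady order, and the wt level was higher in each higher range up to 50. The intervals of the ranges overlapped, which does not show that their levels are equal. Ratios among the ranges under 50 were not computed. At scores of 5 to 10, 775 mutant nuclei had 2.50 CPM (1.85 to 3.30) and 143 wt nuclei 0.748 CPM (0.0906 to 2.70), a ratio of 3.34 (0.876 to 28.3). The wt value rests on 2 UMIs. At scores of 10 to 20, 1589 mutant nuclei had 1.54 CPM (1.19 to 1.97) and 317 wt nuclei 1.94 CPM (1.15 to 3.06). At scores of 20 to 50, 510 mutant nuclei had 2.53 CPM (1.57 to 3.87) and 850 wt nuclei 2.09 CPM (1.58 to 2.71). The intervals of the libraries overlapped in each of these ranges. At 50 and over, 1 mutant and 10 wt nuclei held 0 UMIs of Pcdha1.

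Intervals of the Pcdha1 level overlapped between mutant dopamine nuclei grouped by their Hox UMIs. In the 2045 mutant dopamine nuclei with at least 1 Hox UMI per 10000, Pcdha1 had 98 UMIs, or 1.77 CPM (1.44 to 2.16). In the 584 mutant dopamine nuclei without a Hox UMI it had 20 UMIs, or 2.61 CPM (1.59 to 4.03), and the ratio of the first set to these was 0.680 (0.417 to 1.16). The 246 nuclei with Hox UMIs under 1 per 10000 had 15 UMIs of Pcdha1, or 2.56 CPM (1.44 to 4.23). From most to no Hox UMIs the medians were 22102, 19152 and 11136 UMIs per nucleus, so the split by Hox UMIs was also a split by depth. The 1317 wt dopamine nuclei without a Hox UMI had 1.96 CPM (1.55 to 2.45).

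Genes at and near the locus were set beside Pcdha1. Gm37751, annotated as antisense, is the one opposite-strand gene within the unshared start of Pcdha1, at 36933952 to 36935149 on the minus strand. It had 73 UMIs (1.06 CPM) in mutant and 30 UMIs (0.762 CPM) in wt dopamine nuclei, a ratio of 1.39 (0.900 to 2.21). The strand used in counting is not stated, so tags of Pcdha1 and Gm37751 are uncertain where they overlap. Of mutant dopamine nuclei with a Pcdha1 tag 3 of 105 also had a Gm37751 tag (2.86%, 0.593 to 8.12%), against 68 of 2770 without one (2.45%, 1.911 to 3.102%). In the wt library it was 1 of 62 (1.61%, 0.0408 to 8.66%) against 28 of 1258 (2.23%, 1.48 to 3.20%). The 9 antisense genes inside the locus together had 209 UMIs (3.04 CPM) in mutant and 130 UMIs (3.30 CPM) in wt dopamine nuclei, a ratio of 0.921 (0.736 to 1.16). Of 35 genes with a row that lie within 500 kb of the locus or inside it, 26 had at least 50 UMIs in dopamine nuclei, and 0 of the 26 were 1.5-fold higher or lower with 1 CPM added, where 7.92% of all genes were. With 26 genes the count does not set the locus apart from that share. Their median log2 ratio was -0.08, against 0.03 for all 16324 genes. Fchsd1, a regulator of membrane and actin dynamics past the gamma end, had 11.99 and 17.2 CPM in mutant and wt dopamine nuclei, a ratio of 0.696 (0.628 to 0.772). Diaph1, an actin-nucleating formin gene that borders the gamma cluster, had 81.9 and 106 CPM, a ratio of 0.770 (0.740 to 0.802). The noncoding gene 1700086O06Rik had a ratio of 0.743 (0.650 to 0.851). In other nuclei the ratios were 1.38 (0.911 to 2.16) for Fchsd1, 1.13 (1.02 to 1.27) for Diaph1 and 0.656 (0.484 to 0.894) for 1700086O06Rik.

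**Figure D3:**
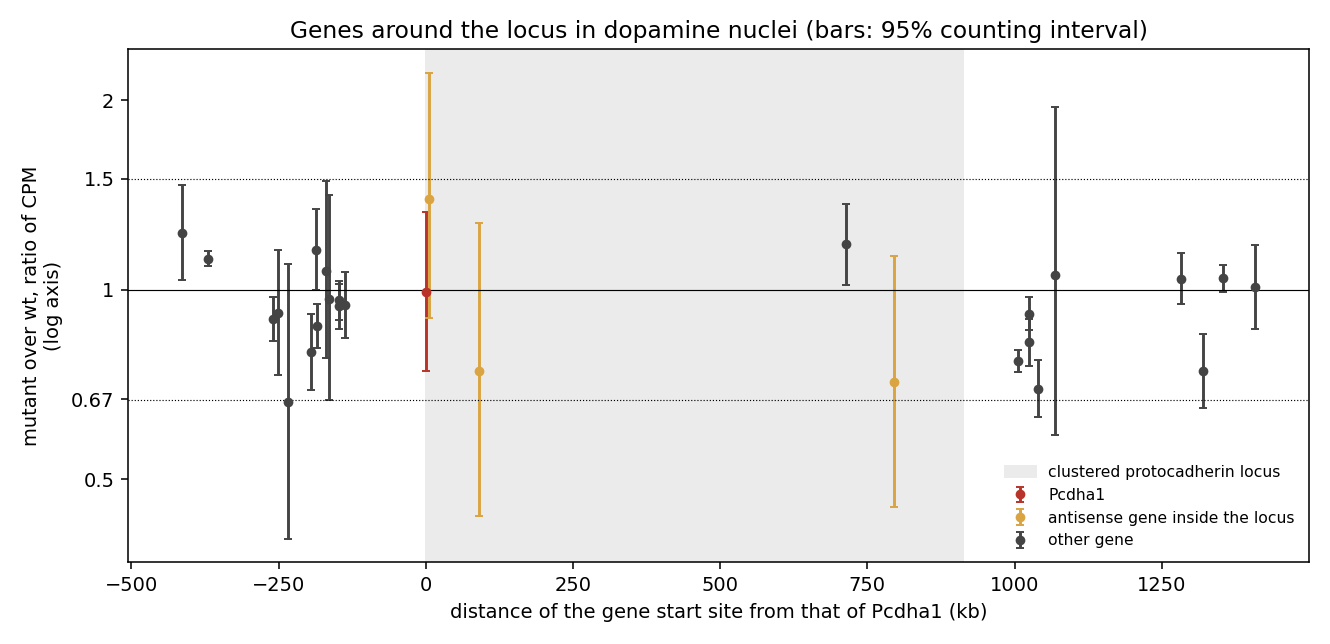
Ratio of mutant to wt CPM in dopamine nuclei (vertical log axis) for Pcdha1 and the 26 measured neighbours, against the distance of each start site from that of Pcdha1 (kb), with bars for the 95% counting interval and dotted lines at 1.5-fold. Pcdha1 stands at 0.990, and the neighbours lie between 0.662, for E230025N22Rik at 0.538 and 0.813 CPM in mutant and wt nuclei with no CPM added, and 1.39 for Gm37751.

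Protocadherins outside the clusters, which are single genes with their own adhesion roles, were set beside Pcdha1. All 11 with a row had at least 50 UMIs in dopamine nuclei; 0 were 1.5-fold higher and 1 was 1.5-fold lower in the mutant library, where 3.63% of all genes were. Their median log2 ratio was -0.29, against 0.03 for all 16324 genes. Pcdh17 had 80.0 CPM in mutant and 131 CPM in wt dopamine nuclei, a ratio of 0.611 (0.589 to 0.635), and 197 and 237 CPM in other nuclei, a ratio of 0.831 (0.785 to 0.880). Pcdh19, an X-linked gene whose loss causes epilepsy in people, had 90.6 and 129.98 CPM in mutant and wt dopamine nuclei, a ratio of 0.697 (0.672 to 0.724), and a ratio of 0.980 (0.908 to 1.06) in other nuclei. Pcdh11x had 72.3 and 100.4 CPM, a ratio of 0.720 (0.691 to 0.751), and 0.819 (0.790 to 0.849) in other nuclei. These 3 are named as the furthest of the list. Of the 11 ratios, 7 lay inside the interval of Pcdha1 in dopamine nuclei and 4 below it. Over 14 alternative settings the number of non-clustered genes 1.5-fold lower was 1 to 4, with no share of all genes computed beside it.

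**Figure D4:**
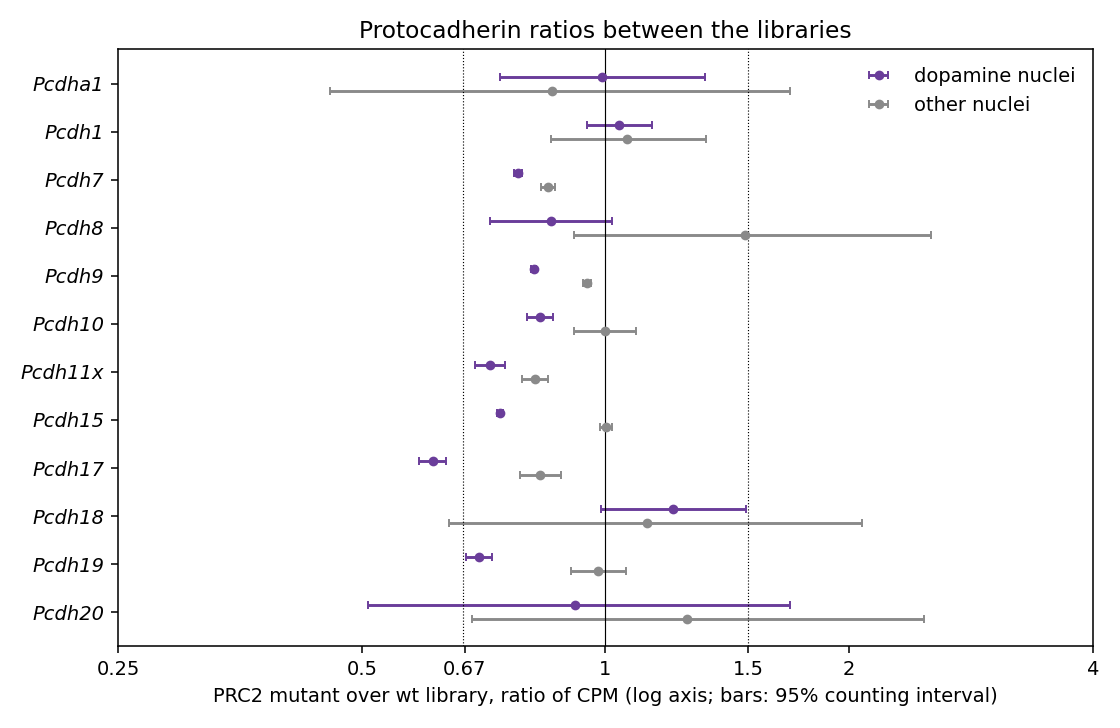
Ratio of mutant to wt CPM (horizontal log axis) for Pcdha1 and the 11 non-clustered protocadherins in dopamine nuclei (purple) and other nuclei (grey), with bars for the 95% counting interval and dotted lines at 1.5-fold. Pcdha1 stands at 0.990 and 0.858, and in dopamine nuclei Pcdh17 is lowest at 0.611.

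Most chromatin regulators of the clustered loci, protocadherin partners and classical cadherins lay within 1.5-fold between the libraries, as did most of all genes. The small counts below do not set these lists apart from all genes. Of 24 chromatin genes named for a part in protocadherin regulation, 1 was 1.5-fold or more higher and 0 were lower in mutant dopamine nuclei, against 4.29% and 3.63% of all genes. Their median log2 ratio was 0.14, against 0.03 for all 16324 genes. The higher one was Rest, a repressor of neuronal genes, at 9.44 CPM in mutant and 5.18 CPM in wt dopamine nuclei, a ratio of 1.82 (1.55 to 2.14). Pds5b and Wapl, which act on cohesin, had ratios of 1.28 (1.24 to 1.33) and 1.23 (1.18 to 1.27). Of 16 genes for partners of protocadherins, 1 was higher and 0 were lower, against the same shares of all genes. The higher partner was Ptk2b, a kinase whose activity clustered protocadherins restrain, at 5.56 CPM in mutant and 2.36 CPM in wt dopamine nuclei, a ratio of 2.35 (1.87 to 2.98). Ptk2b was also higher in other nuclei, at 14.7 and 9.36 CPM, a ratio of 1.57 (1.1995 to 2.08). Ret, a receptor kinase gene, and Adam10, a protease gene, had ratios of 1.26 (1.22 to 1.29) and 1.16 (1.12 to 1.205) in dopamine nuclei. Of 17 classical cadherins with a row, 14 were measured. In dopamine nuclei 0 of the 14 were higher and 0 lower by the rule, against the same shares. Their median was -0.30, against 0.03 for all genes. The furthest were Cdh24, Cdh20 and Cdh9. Cdh24 had a ratio of 1.67 (1.27 to 2.22), or 0.51 on the log2 scale with 1 CPM added. Cdh20 had 0.704 (0.688 to 0.721) and Cdh9 0.702 (0.667 to 0.738). In other nuclei 0 of 14 were higher and 1 was lower, against 3.05% and 4.66% of all genes there. That 1 was Cdh20, at a ratio of 0.626 (0.591 to 0.664). Cdh24 had 0.778 (0.581 to 1.05) and Cdh9 1.00 (0.916 to 1.10) there.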

How the data were processed

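The deposited values are UMI counts as whole numbers, not normalised, in 1 table with 23481 genes and 5740 nuclei. Cell Ranger 3.1.0 and mm10 are named in the submitters' processing notes; filters, annotation and the merging of lanes are not given in the sources used here. Genotype was read from the start of each column name, 0 columns were unused, and all nuclei were kept. Doublets were not removed. The libraries share 4 cell barcodes.

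UMIs were summed per class and library and divided by the class total to give CPM. Ratios carry exact binomial intervals, levels exact Poisson intervals and shares exact Clopper-Pearson intervals, all at 95%. Called genes had at least 50 UMIs over both libraries and a 1.5-fold ratio with a pseudocount of 1 CPM. Gene positions came from GENCODE M21 by symbol, with protein-coding, lincRNA and antisense genes compared for overlap. The ratio and its interval were run on simulated counts with Poisson error only. That run cannot show how well the intervals cover spread between nuclei, mice or libraries. Python 3.11.15, numpy 2.4.6, scipy 1.17.1, pandas 2.3.3 and matplotlib 3.10.9 were used.

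The members and the other lists were chosen with earlier results of these data known. Named genes were to be the C-type members, the 10 members with the most UMIs, the 6 most raised and lowered members, the dopamine score genes and the 3 furthest genes of each other list. With 1 member found, the C-type part names no gene, and the parts by UMIs and by change come to Pcdha1. Gm37751, E230025N22Rik, Eed and the read-through genes are named outside that rule, for what they are or where they lie.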

Additional observations from a re-analysis of the deposited data

How the results depend on the processing

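Over the 10 alternatives for dopamine nuclei the Pcdha1 ratio of mutant to wt lay between 0.837 and 1.38, and over the 8 for other nuclei between 0.779 and 1.24. It was 1.38 with score ranges weighted equally, with or without the highest range, where the wt value of the lowest range rests on 2 UMIs. The ratio of dopamine to other nuclei in the mutant library was 1.70 with nuclei weighted equally. No member was 1.5-fold higher or lower under any alternative run. Members per 100 mutant dopamine nuclei were 0.456, 2.04 and 3.65 when thinned to 2000, to 10000 and not thinned; in the wt library 0.467, 1.12 and 4.70. The wt draw at 10000 was thus close to the 1.03 at 5000, while the averages over all draws at 10000 were 1.92 in the mutant and 1.81 in the wt library.

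The small counts of other lists moved. Non-clustered protocadherins 1.5-fold lower were 2 at a score limit of 10 and with nuclei weighted equally, 3 without nuclei of at least 5 glial and vascular marker UMIs per 10000, and 4 with score ranges weighted equally, with or without the highest. Classical cadherins lower were 2 at a score limit of 10 and with the 3 lower ranges weighted equally. They were 5 with all ranges, and 5 under the same marker limit. Classical cadherins higher were 1 without the top 5% of nuclei by UMIs, with nuclei weighted equally and at a pseudocount of 0.5 CPM. With all ranges weighted equally, 2 locus neighbours were higher and 7 lower, 2 chromatin regulators lower, and 2 partners higher and 1 lower; 2 partners were higher with the 3 lower ranges. The range of 50 and over holds 1 mutant and 10 wt nuclei. Under the same marker limit, 1 neighbour was lower and 0 chromatin regulators were higher. That limit kept 218 of 2875 mutant and 179 of 1320 wt dopamine nuclei. At a pseudocount of 5 CPM 0 chromatin regulators and 0 partners were higher. No share of all genes was computed at these settings, so no list is set apart. The cause of these moves was not tested.

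No paired analysis was possible because there was 1 library per genotype, and its lanes, merged in the table, are no replicates. No test was run, and no library was left out. The 3 score ranges under 50 and the removal of nuclei with more glial than neuron markers were chosen after seeing the data. Pcdha1 had 210 UMIs in dopamine nuclei and 50 in other nuclei over both libraries, and why it had so few was not tested. Other clustered members are not analysed here.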
